A study of Mus musculus with 12 samples.

Results

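Eukaryotic translation initiation factors, whose mouse gene symbols begin with Eif, were examined in PUER cells before and after activation of PU.1. Their genes were found by a rule on the symbol alone, which used no signal: every array feature whose platform annotation gives 1 gene symbol, and one beginning with Eif, was a member. On the Mouse Genome 430 2.0 design 133 of 45037 probe sets qualified, from 47 of 18193 genes. On the Mouse Exon 1.0 ST design 35 of 23238 transcript clusters qualified, from 35 of 14807 genes, and all 35 were among the 47; Eif1ax, Eif2ak1, Eif2ak2, Eif2b3, Eif3h, Eif3m, Eif4a1, Eif4a2, Eif4h, Eif4ebp1, Eif5a and Eif6 had a qualifying feature on the 430 design alone. Another 6 probe sets and 7 transcript clusters carry an Eif symbol beside other symbols and were set aside. Eif1, Eif2s1 and Eif4g1 were not analysed here.

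PUER cells are cultured mouse myeloid progenitors without PU.1 of their own, a transcription factor of macrophage and B-cell development. A transgene gives them PU.1 joined to the ligand-binding domain of the estrogen receptor, which stays inactive until 4-hydroxytamoxifen (OHT) is added, so every value comes from a single cell line. All groups grew in interleukin-3 at 5 ng/ml with puromycin. Each design holds 3 arrays labelled 0 h, from cells without OHT, and 3 labelled 24 h, from cells given 100 nM OHT, which makes 4 groups; no group analysed here is labelled as vehicle-treated or as given OHT without the fusion. The question was which genes respond to PU.1. The labels do not say whether the 3 arrays of a group came from separate cultures, and p-values therefore measure only the spread between arrays, which may be technical.

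Translation of most messages starts when the small ribosomal subunit, loaded with initiator tRNA by eIF2, is brought to the capped 5′ end of the message by the eIF4 factors and eIF3. It scans to a start codon under the control of eIF1 and eIF1A, after which eIF5 and eIF5B release eIF2 and join the large subunit. The step is adjusted at the cap, where 4E-BP proteins block eIF4E, and at eIF2, where stress-activated kinases phosphorylate its alpha subunit and so block eIF2B, the factor that recharges it. Growing hematopoietic progenitors make large amounts of protein, and many initiation factor genes are known targets of the MYC family, which binds the sequence CACGTG (the E-box).

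Signals are log2 values as deposited, and each change is the mean of the arrays labelled 24 h minus the mean of those labelled 0 h. "Lower" and "higher" below refer to the 24 h label. A gene is represented by its brightest qualifying feature on a design, and it was called changed at a Benjamini-Hochberg adjusted p under 0.05 in limma, adjusted over all features of that design. The exon directions need care throughout. Changes ran in opposite directions on the 2 designs across the 13356 genes on both (Pearson r = -0.86 and Spearman rho = -0.72, across genes, which are not independent replicates). The macrophage markers Adgre1, Csf1r, Cd68, Itgam and Mertk were all called higher on the 430 arrays, where their summed signal lay between 8.25 and 8.33 at 0 h and between 12.23 and 12.31 at 24 h (log2), and all 5 were called lower on the exon arrays, from 10.95 to 11.06 at 0 h and from 8.32 to 8.51 at 24 h. Of 6 myeloid progenitor markers, 4 were lower and 1 higher on the 430 arrays, while 3 were higher and 1 lower on the exon arrays, and Cd34 was near the bottom of the scale on both. Of 5 mast cell and basophil markers 2 were lower on the 430 arrays and 1 higher on the exon arrays, of 3 erythroid markers 1 was higher on the 430 arrays, and of 3 lymphoid markers 1 was lower there. Either set of labels may therefore be exchanged, and which one was not settled here. If the exon labels are exchanged, each exon change below takes the opposite sign, and if the 430 labels are, each 430 change does. The samples are bulk RNA, so fewer cells of a type and less RNA per cell cannot be told apart, and the part that the shift in markers has in the results was not tested.

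The promoters of 4 members are shown because the members move largely together and because the E-box has a textbook link to this gene group. No motif besides the E-box and GAGGAA was searched for. They come from RefSeq (assembly GRCm38.p6), which gave windows from 250 bases before to 50 bases after the start for 38 of the 47 genes. Eif4e encodes the cap-binding protein, Eif1b a relative of the start-codon selection factor eIF1, and Eif3f a subunit of eIF3; all 3 were lower on the 430 arrays and higher on the exon arrays, and each window holds the E-box, in capitals. Eif5b, one of 2 members called higher on the 430 arrays, is shown beside them, and its window holds none. Most members called lower hold none either: 8 of the 25 with a window hold it, and Eif1ad, Eif3b and Eif2b4 do not. The regions are chr3:138527018-138527317 for Eif4e, chr9:120492356-120492655 for Eif1b, chr7:108934165-108934464 for Eif3f and chr1:37997760-37998059 for Eif5b, all on the plus strand and written 5′ to 3′.
Eif4e: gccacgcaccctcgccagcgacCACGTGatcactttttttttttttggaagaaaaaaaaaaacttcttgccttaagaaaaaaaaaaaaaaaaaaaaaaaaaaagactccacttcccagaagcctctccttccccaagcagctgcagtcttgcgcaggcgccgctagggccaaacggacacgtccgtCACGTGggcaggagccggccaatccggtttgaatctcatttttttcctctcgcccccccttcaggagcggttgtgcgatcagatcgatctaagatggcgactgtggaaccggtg
Eif1b: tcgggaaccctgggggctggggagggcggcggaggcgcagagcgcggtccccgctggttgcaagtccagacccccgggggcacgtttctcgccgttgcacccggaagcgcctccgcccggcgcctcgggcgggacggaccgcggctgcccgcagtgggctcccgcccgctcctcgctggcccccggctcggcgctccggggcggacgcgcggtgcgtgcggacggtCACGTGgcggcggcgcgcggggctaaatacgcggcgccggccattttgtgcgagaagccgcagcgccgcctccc
Eif3f: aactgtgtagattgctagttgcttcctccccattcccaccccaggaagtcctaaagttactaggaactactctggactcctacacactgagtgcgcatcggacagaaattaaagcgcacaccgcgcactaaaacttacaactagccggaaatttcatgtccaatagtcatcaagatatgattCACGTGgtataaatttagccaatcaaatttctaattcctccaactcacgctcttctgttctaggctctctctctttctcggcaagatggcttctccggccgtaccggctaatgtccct
Eif5b: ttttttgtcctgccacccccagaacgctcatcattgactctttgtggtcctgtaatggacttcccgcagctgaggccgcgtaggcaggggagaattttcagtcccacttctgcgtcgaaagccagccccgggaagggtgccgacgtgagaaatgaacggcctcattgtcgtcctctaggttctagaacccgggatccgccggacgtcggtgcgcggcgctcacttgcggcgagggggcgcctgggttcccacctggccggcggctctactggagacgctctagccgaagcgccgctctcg
Counted from the start, the capitals begin at positions -228 and -64 in Eif4e, -24 in Eif1b and -68 in Eif3f.

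CACGTG, which reads the same on both strands, was in at least 1 window of 9 of the 38 members (23.7%). It was in 8.09% of the 27025 genes with a window, and in 13.8% of the 2713 genes whose mean log2 signal on the 430 arrays was at least 10. The members holding it were Eif1b, Eif3a, Eif3f, Eif3k, Eif4a1, Eif4e, Eif4h, Eif5a and Eif5a2. Of the 25 members called lower on the 430 arrays 8 held it (32%), of the 2 called higher none did, and of the 11 not called 1 did. Among all genes at a signal of at least 10 and called lower, 162 of 1191 (13.6%) held it, close to the share among all bright genes. Several members have more than 1 window, and Eif4e has a second window, from another start, with no E-box. GAGGAA (on the other strand TTCCTC), letters found at the core of many PU.1 sites, was in 10 of the 38 members (26.3%) and in 31.3% of all genes; it can share at most an end base with the E-box. Both motifs and the signal limit were chosen with results known, a match is not a binding site, and Eif1a, Eif2b3, Eif3e, Eif3h, Eif3i, Eif4e3, Eif4ebp1, Eif4g2 and Eif6 had no entry.

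On the 430 arrays 30 of the 47 initiation factor genes were lower at 24 h, 2 were higher and 15 were not called. Over all 18193 genes 26.1% were called lower and 26% higher. The median change of the members was -0.33, against 0.06 over all genes and -0.04 over genes at or above the median signal. Bright genes were more often called, and members are bright: among genes with a mean signal of at least 10, 43.8% of 3256 were called lower and 29.9% higher, against 27 of 38 members (71.1%) lower and 1 higher. The 2 members called higher were Eif5b and Eif2ak4, and 37 of the 47 changes were negative. Most changes were modest, and 4 were at least 1 in size on the log2 scale, those of Eif1ad, Eif3b, Eif2b4 and Eif6. The 0 h and 24 h arrays did not overlap for 35 members (61% of all genes did not overlap). By probe set, 71 of 133 were lower and 7 higher, against 23.5% and 22.3% of all probe sets.

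On the exon arrays 19 of 35 genes were higher at 24 h, 2 were lower and 14 were not called, where 19.3% of all genes were called higher and 10.8% lower. The median change of the members was 0.38, against 0.01 over all genes and 0.13 over genes at or above the median signal. Among genes with a mean signal of at least 8, 36.5% were called higher and 16.6% lower, against 15 of 25 members (60%) higher and 2 lower. Eif2s2 and Eif1ad had changes of at least 1. The arrays of the 2 labels did not overlap for 28 of the 35 members (47.2% of all genes). The median signal of the members per array lay between 8.27 and 8.53 at 0 h and between 8.90 and 9.09 at 24 h on the exon arrays, and between 11.49 and 11.59 at 0 h and between 11.06 and 11.14 at 24 h on the 430 arrays, so these medians did not overlap between labels on either design.

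**Figure D1:**
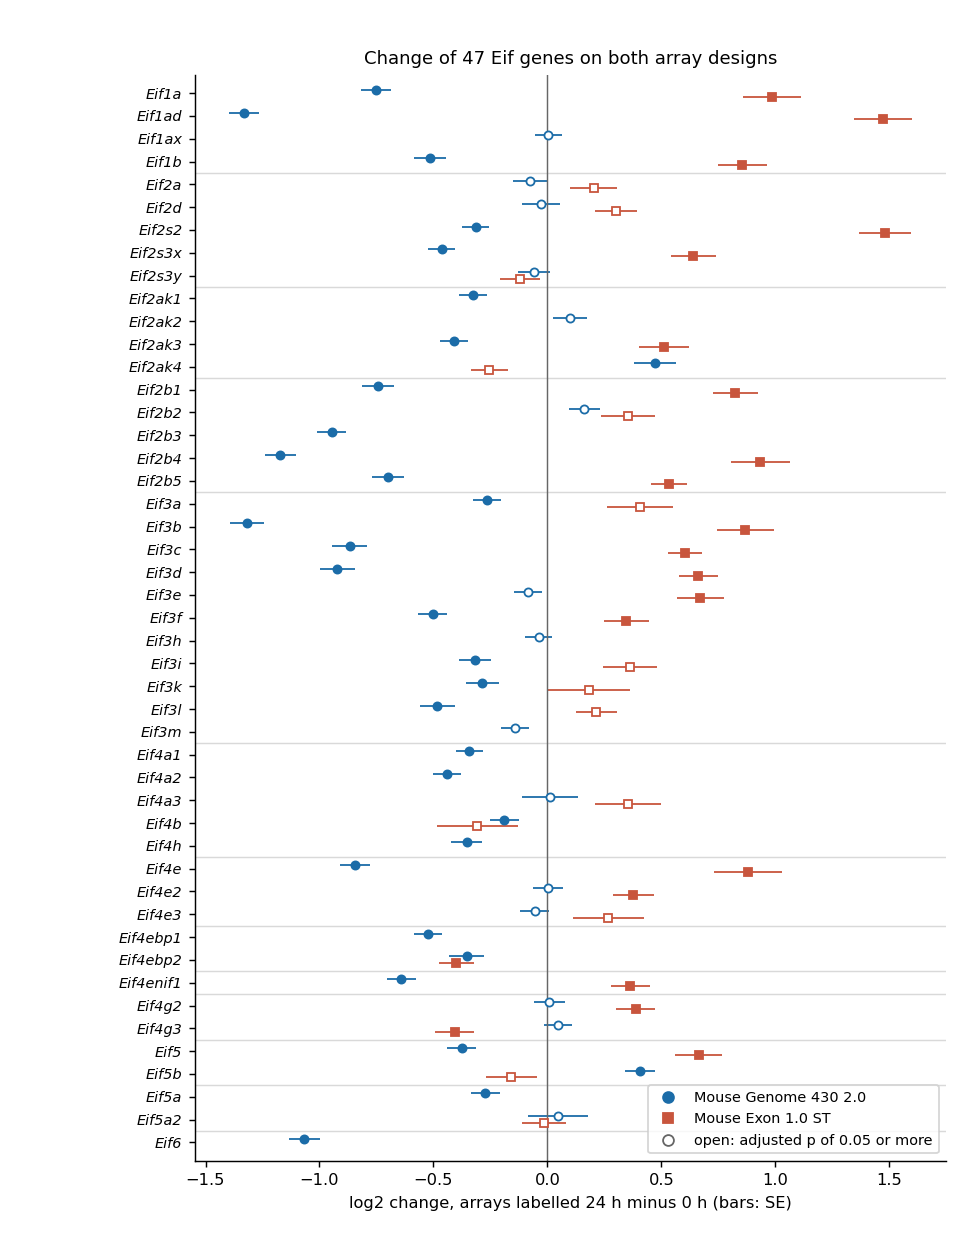
Log2 change (24 h minus 0 h as labelled, horizontal axis) of each of the 47 Eif genes, with SE bars, on the 430 arrays (circles) and, for 35 genes, on the exon arrays (squares); filled symbols passed an adjusted p under 0.05 and grey lines separate the role groups. On the 430 arrays 30 filled circles lie below 0 and 2 above; on the exon arrays 19 filled squares lie above 0 and 2 below.

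Of the 35 genes on both designs, 17 were called on both, and 16 of these in opposite directions, every one of the 16 lower on the 430 arrays and higher on the exon arrays. Calls in opposite directions were made for 27.8% of all 13356 genes on both designs, and calls in the same direction for 0.427%. Eif4ebp2 was the member called in the same direction as labelled. If the labels of a design are exchanged, its changes are the opposite ones and those of the 16 genes share a direction. Another 7 genes were called on the 430 arrays only, 4 on the exon arrays only and 7 on neither. The signs were opposite for 28 of the 35, and across the 35 genes the changes on the 2 designs had r = -0.68 (rho -0.70), a description across genes of designs that share no array. In a limma fit over both designs the 430 change differed from the exon change for 27 of the 35 members, at an adjusted p under 0.05 over all joined genes, where 58% of all joined genes differed.

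**Figure D2:**
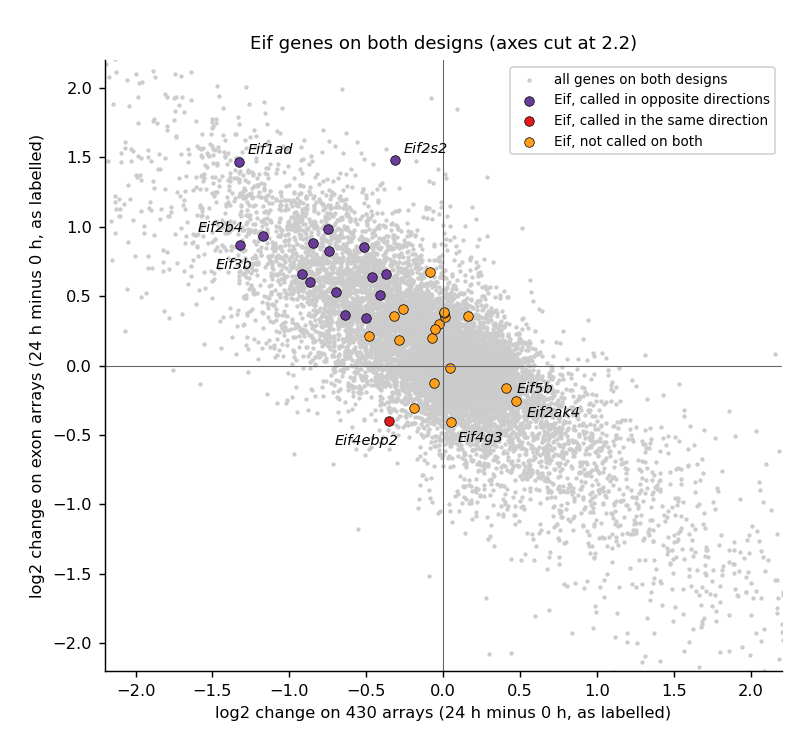
Log2 change on the 430 arrays (horizontal) against log2 change on the exon arrays (vertical), both 24 h minus 0 h as labelled, for all genes on both designs (grey, cut at 2.2 in size) and the 35 Eif genes. The 16 purple points lie at the upper left, and Eif4ebp2, in red, is the one member called lower on both.

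Among the genes whose symbols begin with Eif1, 3 of 4 were lower on the 430 arrays and 3 of 3 higher on the exon arrays. The factors eIF1 and eIF1A act in scanning and start-codon choice. Eif1ad, grouped here by its symbol, encodes a protein that shares a domain with eIF1A. Its 430 signals were 11.03, 11.03 and 10.99 at 0 h and 9.76, 9.61 and 9.70 at 24 h, a change of -1.33 (SE 0.0663, adjusted p = 6.02e-07). Its exon signals were 8.32, 8.14 and 8.53 at 0 h and 9.92, 9.73 and 9.75 at 24 h, a change of 1.47 (SE 0.127, adjusted p = 0.000702). The 3 arrays of each label stood apart on both designs, by 2.51-fold on the 430 arrays and 2.77-fold on the exon arrays. Eif1a, a copy of eIF1A, gave 11.52, 11.59 and 11.49 at 0 h and 10.80, 10.83 and 10.71 at 24 h on the 430 arrays (change -0.75, SE 0.066) and 7.77, 7.74 and 8.09, then 8.95, 8.88 and 8.73, on the exon arrays (change 0.98, SE 0.127), again with no overlap. Eif1b moved the same way (-0.52 and 0.86).

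Eif1ax, the X-linked copy of eIF1A, was represented on the 430 arrays by a probe set at 12.90, 12.93 and 12.96, then 12.95, 12.94 and 12.91, with overlapping groups and a change of 0.00 (SE 0.0598). Its dimmer probe sets were both called lower, by -0.64 (SE 0.0661) and -0.89 (SE 0.12), so what this gene did depends on the probe set read. Eif1a and Eif1ax are close copies, and signal shared between them cannot be told apart.

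Of the 5 genes grouped under eIF2, 2 were lower on the 430 arrays and 2 higher on the exon arrays. Both well-expressed subunits of the trimer that carries initiator tRNA, Eif2s2 (beta) and Eif2s3x (gamma), were lower on the 430 arrays and higher on the exon arrays. Eif2s3x gave 12.39, 12.39 and 12.36 at 0 h and 11.88, 11.93 and 11.93 at 24 h on the 430 arrays (change -0.46, SE 0.0594, adjusted p = 0.000217). The exon arrays gave 10.72, 10.59 and 10.70, then 11.28, 11.20 and 11.45 (change 0.64, SE 0.0978, adjusted p = 0.00528). The arrays of the 2 labels did not overlap on either design.

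Eif2s2 had the members' largest exon change and a small 430 change. Its 430 signals were 13.03, 13.02 and 12.96 at 0 h and 12.71, 12.69 and 12.66 at 24 h (change -0.32, SE 0.061, adjusted p = 0.00266). Its exon signals were 7.30, 7.56 and 7.53 at 0 h and 9.09, 8.86 and 8.90 at 24 h (change 1.48, SE 0.114, adjusted p = 0.000486), a 2.79-fold difference with no overlap. Of its 6 probe sets 5 were called lower, from -0.24 to -1.15, and the change of -1.15 (SE 0.0694) came from a probe set with a mean signal of 8.97, whereas the probe set used here has 12.85. Eif2a, an alternative tRNA-carrying factor distinct from eIF2, and Eif2d, which acts in tRNA delivery and in recycling, were not called on either design (Eif2a -0.08 and 0.20, Eif2d -0.03 and 0.30). Eif2d gave 10.93, 10.89 and 10.69, then 10.76, 10.75 and 10.90, on the 430 arrays, where the groups overlapped, and 8.03, 7.88 and 7.85, then 8.27, 8.26 and 8.14, on the exon arrays, where they did not (adjusted p = 0.061). Dimmer probe sets of Eif2d were called both ways (-0.40 and 0.37). Eif2s3y, the Y-linked gamma subunit, lay near the bottom of both scales, with mean signals of 3.19 and 3.13 on the 430 arrays and 1.88 and 1.76 on the exon arrays, and no change in it could be measured.

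The 4 kinases that phosphorylate eIF2 did not move together. Eif2ak1 (HRI, activated by lack of heme) and Eif2ak3 (PERK, activated by unfolded protein in the endoplasmic reticulum) were lower on the 430 arrays, Eif2ak4 (GCN2, activated by uncharged tRNA) was higher, and Eif2ak2 (PKR, activated by double-stranded RNA) was not called. Eif2ak4 gave 8.03, 7.85 and 7.81 at 0 h and 8.26, 8.52 and 8.32 at 24 h on the 430 arrays, a change of 0.47 (SE 0.0917, adjusted p = 0.00272), with all 24 h arrays above all 0 h arrays. The exon arrays gave 7.20, 7.06 and 7.13, then 6.93, 6.86 and 6.84, also without overlap, but the change of -0.25 was not called (adjusted p = 0.0739). The difference between its 2 changes was 0.73 (SE 0.122, adjusted p = 0.00011).

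Eif2ak3 gave 9.34, 9.26 and 9.31, then 8.89, 8.92 and 8.89, on the 430 arrays (change -0.41, SE 0.061) and 7.23, 7.06 and 7.30, then 7.84, 7.71 and 7.58, on the exon arrays (change 0.51, SE 0.11, adjusted p = 0.0192). The groups did not overlap on either design, yet the exon call was lost when any of 4 of the 6 arrays was left out (0 h replicates 1 and 2, 24 h replicates 1 and 2; adjusted p from 0.0548 to 0.0648). Eif2ak1, on the 430 arrays only, gave 9.22, 9.15 and 9.26, then 8.86, 8.88 and 8.91 (change -0.33, SE 0.0627). Its second-brightest probe set was also lower (-0.42), while its dimmest, near 4.27, was called higher (0.28), and the mean over its probe sets was not called (adjusted p = 0.0565). Eif2ak2 gave 8.58, 8.66 and 8.79, then 8.73, 8.83 and 8.76, with overlapping groups (change 0.10, SE 0.0754).

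Genes of eIF2B, the exchange factor that returns eIF2 to its active form, had a median change of -0.74 on the 430 arrays, and 4 of 5 were lower: Eif2b1 (-0.74), Eif2b3 (-0.95), Eif2b4 (-1.17) and Eif2b5 (-0.70). On the exon arrays 3 of 4 were higher. Eif2b4, the delta subunit, gave 10.70, 10.61 and 10.73 at 0 h and 9.53, 9.44 and 9.56 at 24 h on the 430 arrays (SE 0.0675, adjusted p = 1.46e-06). Exon signals were 6.44, 6.36 and 6.29, then 7.07, 7.31 and 7.51 (change 0.93, SE 0.13, adjusted p = 0.00378). The groups of Eif2b4 were far apart on both designs. Eif2b5, the catalytic epsilon subunit, gave 10.52, 10.57 and 10.62, then 9.95, 9.80 and 9.86, on the 430 arrays (SE 0.0685) and 8.06, 7.99 and 8.07, then 8.61, 8.50 and 8.61, on the exon arrays (change 0.53, SE 0.0789), with no overlap.

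Eif2b2, the beta subunit, was the eIF2B gene not called on either design. It gave 11.08, 11.02 and 10.93, then 11.14, 11.23 and 11.15, on the 430 arrays (change 0.16, SE 0.0677, adjusted p = 0.0831) and 8.02, 7.90 and 7.80, then 8.07, 8.38 and 8.33, on the exon arrays (change 0.35, SE 0.118, adjusted p = 0.0812). Its arrays did not overlap on either design, the 24 h values being above the 0 h values both times. Its next-brightest 430 probe set, at 10.99, was called lower, opposite in sign and just inside the threshold (-0.16, SE 0.0587, adjusted p = 0.04996).

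All 11 eIF3 genes had negative changes on the 430 arrays, and 8 were called lower. eIF3 is the large scaffold that holds the small ribosomal subunit, eIF4G and the message together. All 9 eIF3 genes on the exon arrays had positive changes, and 5 were called higher: Eif3b, Eif3c, Eif3d, Eif3e and Eif3f. The 430 changes ran from -1.32 for Eif3b through -0.92 for Eif3d, -0.87 for Eif3c, -0.50 for Eif3f, -0.48 for Eif3l, -0.32 for Eif3i, -0.29 for Eif3k and -0.26 for Eif3a to -0.14 for Eif3m, -0.09 for Eif3e and -0.04 for Eif3h, the last 3 not called. By these probe sets, subunits of a single complex differed in size of change by more than 1 log2 unit on the 430 arrays. The other Eif3i probe set, at 13.27 beside 13.34, was not called (-0.03, SE 0.06, adjusted p = 0.753). On the exon arrays the 9 changes lay closer together, from 0.18 to 0.87, with Eif3e at 0.67.

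Eif3b, a core subunit, gave 11.80, 11.79 and 11.83 at 0 h and 10.59, 10.35 and 10.53 at 24 h on the 430 arrays (SE 0.076, adjusted p = 1.47e-06). Its exon signals were 10.04, 10.14 and 10.08, then 11.15, 10.98 and 10.73 (change 0.87, SE 0.125, adjusted p = 0.00421). Every 24 h array lay below the 0 h arrays on the 430 design and above them on the exon design. Eif3a, the other core scaffold subunit named here, gave 12.96, 12.95 and 12.89, then 12.65, 12.69 and 12.66, on the 430 arrays (SE 0.061) and 10.00, 9.96 and 10.23, then 10.47, 10.69 and 10.24, on the exon arrays, where a change of 0.41 (SE 0.144, adjusted p = 0.099) was not called although the groups did not overlap. Eif3h, on the 430 arrays only, gave 13.01, 12.97 and 12.95, then 12.93, 12.92 and 12.96, with overlap. Eif3e, a subunit at the edge of the complex, was called on the exon arrays alone (0.67, SE 0.102, adjusted p = 0.00518), and its 2 changes differed (adjusted p = 2.84e-05).

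Eif3l gave 12.46, 12.46 and 12.43, then 12.02, 11.84 and 12.06, on the 430 arrays (SE 0.0752), without overlap. Its exon signals of 10.02, 9.91 and 9.88, then 10.15, 10.05 and 10.24, did not overlap either, with a change of 0.21 that was not called (adjusted p = 0.153). Its dimmer 430 probe sets, at 4.80 and 4.41, had changes of 0.22 and 0.30, the second called, so the mean over its 3 probe sets was 0.01 (adjusted p = 0.872). The 4 probe sets of Eif3c were all called lower, from -0.53 (SE 0.0786) to -1.45 (SE 0.0774); those whose names end in x_at can share probes with other transcripts.

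The helicase eIF4A unwinds the 5′ end of the message, and eIF4B and eIF4H stimulate it. On the 430 arrays 4 of these 5 genes were lower, all modestly, with changes of -0.34 for Eif4a1, -0.44 for Eif4a2, -0.19 for Eif4b and -0.35 for Eif4h. Eif4a1 gave 13.96, 13.99 and 13.94 at 0 h and 13.61, 13.61 and 13.64 at 24 h (SE 0.0595, adjusted p = 0.00141). Eif4a2 gave 12.46, 12.52 and 12.43, then 12.07, 12.04 and 11.99 (SE 0.0629, adjusted p = 0.000427). Neither overlapped. Eif4a3, the helicase of the exon junction complex, gave 5.69, 5.67 and 5.85, then 5.49, 6.0 and 5.76, below the median signal of the 430 arrays and with full overlap; on the exon arrays 7.42, 7.81 and 7.35, then 7.83, 7.82 and 7.99, gave 0.35, not called (adjusted p = 0.141). Eif4b lay below the median signal on the exon arrays, where its change of -0.31 (SE 0.178) was not called. Its mean signal was 4.32 there and 12.04 on the 430 arrays. Whether that exon cluster reads the Eif4b gene was not tested.

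The cap-binding protein itself was among the members that moved most. Eif4e gave 12.54, 12.60 and 12.47 at 0 h and 11.71, 11.66 and 11.71 at 24 h on the 430 arrays (change -0.84, SE 0.0641, adjusted p = 7.82e-06, 1.79-fold). Its exon signals were 5.77, 5.59 and 5.62, then 6.24, 6.70 and 6.69 (change 0.88, SE 0.149, adjusted p = 0.00775, 1.84-fold). No array of one label reached the range of the other on either design. The second- and third-brightest 430 probe sets of Eif4e had changes of -1.01 and -1.02, and the dimmest, at 6.03, was not called (-0.10). Eif4e2, a cap-binding relative that represses translation, gave 11.29, 11.16 and 11.17, then 11.23, 11.23 and 11.17, on the 430 arrays, with overlap. Eif4e2 had 1 of its 5 probe sets called there, lower, at a signal of 11.07 (-0.21, SE 0.0681, adjusted p = 0.0318). Its exon signals of 7.12, 6.91 and 7.06, then 7.37, 7.46 and 7.38, were called higher (0.38, SE 0.0901, adjusted p = 0.0277), a call that was lost whichever of the 6 arrays was left out (adjusted p from 0.0509 to 0.0992). Eif4e3, a further family member, was not called on either design (-0.06 and 0.27), although its second 430 probe set was called lower (-0.44, SE 0.0759).

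The inhibitors of eIF4E were lower on the 430 arrays together with their target. Eif4ebp1 gave 11.67, 11.60 and 11.62 at 0 h and 11.14, 11.12 and 11.06 at 24 h (change -0.52, SE 0.0622, adjusted p = 0.000133). Eif4ebp2 gave 10.72, 10.65 and 10.86, then 10.36, 10.32 and 10.48, on the 430 arrays (change -0.35, SE 0.0779, adjusted p = 0.00534). On the exon arrays Eif4ebp2 gave 10.89, 10.93 and 11.00, then 10.55, 10.51 and 10.56 (change -0.40, SE 0.0769, adjusted p = 0.0127). The 24 h arrays lay below all 0 h arrays on both designs, and the 2 changes differed by 0.04 (SE 0.107, adjusted p = 0.74). The 430 call rests on 1 of its 5 probe sets: the other 4 had changes from -0.14 to 0.04, none called, and the mean over the 5 was -0.07 (adjusted p = 0.385). The exon call comes from its only qualifying transcript cluster. The exon call was lost without 24 h replicate 2 (adjusted p = 0.0559). Eif4enif1 (4E-T), which carries eIF4E into the nucleus and to sites of mRNA decay, gave 9.94, 9.85 and 9.82, then 9.24, 9.21 and 9.25, on the 430 arrays (change -0.64, SE 0.0633). Its exon signals of 8.25, 8.27 and 8.32, then 8.72, 8.54 and 8.67, were called higher (0.36, SE 0.0856, adjusted p = 0.0264) without overlap, and that call was lost on leaving out each of 5 of the 6 arrays (all but 24 h replicate 2; adjusted p from 0.0575 to 0.0888).

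**Figure D3:**
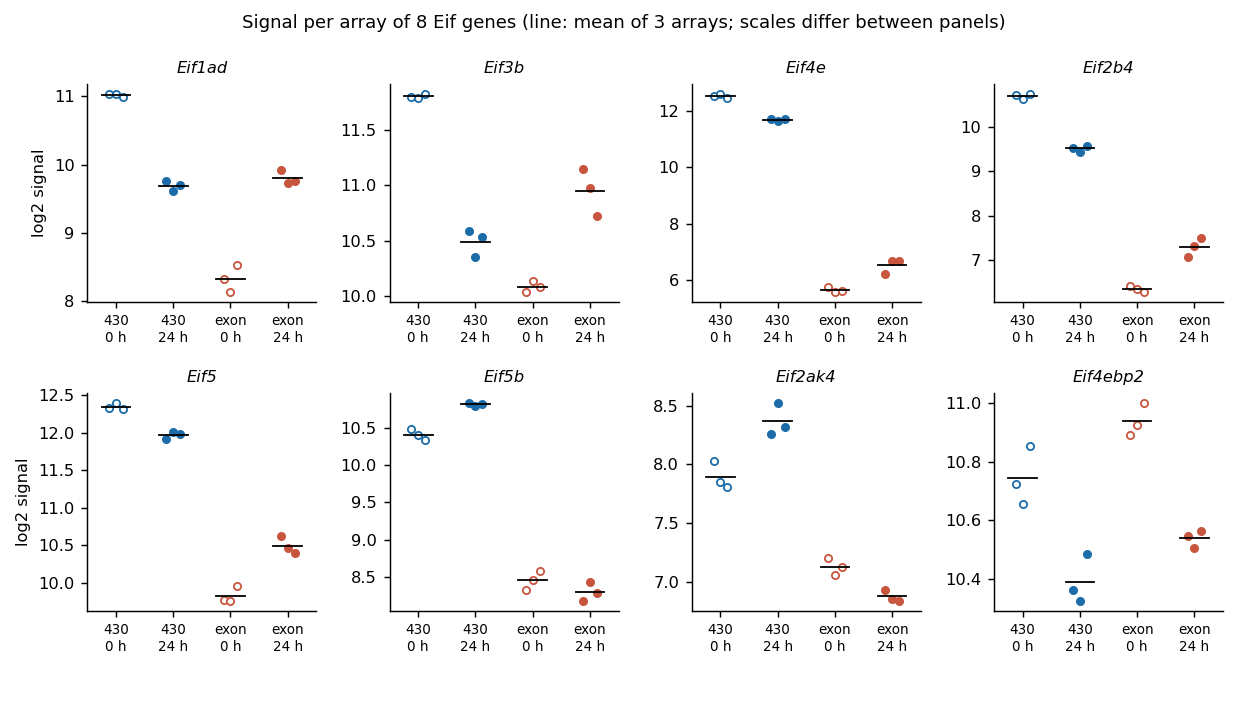
Log2 signal (vertical axis, own scale in each panel) of 8 Eif genes on each of the 12 arrays: open symbols 0 h, filled symbols 24 h, blue 430 arrays, red exon arrays, line at the mean of 3 arrays. Eif1ad, Eif3b, Eif4e, Eif2b4 and Eif5 are lower at 24 h on the 430 arrays and higher on the exon arrays, Eif5b and Eif2ak4 are higher on the 430 arrays, and Eif4ebp2 is lower on both.

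The eIF4G genes analysed here, Eif4g2 (DAP5, which acts in cap-independent initiation) and Eif4g3 (a paralog of the eIF4G scaffold), were not called on the 430 arrays by their brightest probe sets. Eif4g2 gave 13.57, 13.63 and 13.63, then 13.53, 13.70 and 13.63, and Eif4g3 gave 10.53, 10.57 and 10.61, then 10.64, 10.59 and 10.62, both with overlap. They moved apart on the exon arrays. Eif4g2 gave 11.17, 11.18 and 11.28, then 11.66, 11.61 and 11.50 (change 0.39, SE 0.0856, adjusted p = 0.021), and Eif4g3 gave 10.29, 10.41 and 10.47, then 10.01, 9.95 and 9.99 (change -0.41, SE 0.0852, adjusted p = 0.0174). No exon groups overlapped, and both calls were lost without single arrays: for Eif4g2 without 0 h replicate 1 or 2 or 24 h replicate 1 or 2 (adjusted p from 0.0594 to 0.0766), for Eif4g3 without 0 h replicate 2 or 3 or 24 h replicate 2 (adjusted p from 0.0538 to 0.0689). Of the 5 probe sets of Eif4g2, those at 10.99 and 5.65 were called lower (-0.44 and -0.43), and the mean over the 5 was -0.18 (adjusted p = 0.0161).

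Eif5 and Eif5b, which act at successive steps once the start codon is found, changed in opposite directions on the 430 arrays. Eif5, which triggers GTP hydrolysis on eIF2, gave 12.32, 12.39 and 12.32 at 0 h and 11.92, 12.01 and 11.99 at 24 h (change -0.38, SE 0.0635, adjusted p = 0.00122). Eif5b, the GTPase that joins the ribosomal subunits, gave 10.48, 10.39 and 10.33, then 10.83, 10.79 and 10.81 (change 0.41, SE 0.0658, adjusted p = 0.000936). The ranges did not overlap for either gene, and all 3 probe sets of Eif5b were called higher (0.41, 0.38 and 0.42). On the exon arrays Eif5 gave 9.78, 9.76 and 9.95, then 10.62, 10.46 and 10.40 (change 0.66, SE 0.102, adjusted p = 0.00538). Eif5b gave 8.33, 8.46 and 8.59, then 8.18, 8.44 and 8.28, with overlap and no call (-0.16, SE 0.111). The change of Eif5b differed between designs by 0.56 (SE 0.122, adjusted p = 0.000982).

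eIF5A is a hypusine-bearing factor that helps ribosomes past slow peptide bonds, and eIF6 keeps the large ribosomal subunit from joining early and acts in its assembly. Eif5a gave 14.35, 14.36 and 14.39 at 0 h and 14.12, 14.04 and 14.13 at 24 h on the 430 arrays (change -0.27, SE 0.0625, adjusted p = 0.0068). Eif6 gave 11.93, 11.87 and 11.98, then 10.88, 10.80 and 10.91 (change -1.07, SE 0.0665, adjusted p = 2.34e-06, 2.09-fold). In both probe sets every 24 h array was lower. The other Eif5a probe set, at 12.78, had a larger change (-0.68, SE 0.0661, adjusted p = 3.7e-05), and the other Eif6 probe set, at 7.89, was not called (-0.04, SE 0.0768). Averaged over its probe sets, Eif5a had a change of -0.48 and Eif6 of -0.55, under the size of 1. Both genes were read on the 430 arrays alone, since neither had a qualifying exon cluster. Eif5a2, a second copy of eIF5A, lay below the median signal on both designs, at 4.83, 5.09 and 4.79, then 5.13, 4.66 and 5.06, on the 430 arrays and 3.48, 3.53 and 3.57, then 3.61, 3.57 and 3.36, on the exon arrays, with overlap and no call on either (0.05 and -0.01).

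Different probe sets of a gene did not always tell the same story. Of the 37 genes with several 430 probe sets, all probe sets shared the same call for 10, and 3 genes (Eif2ak1, Eif2d and Eif3l) had probe sets called in both directions. The other 10 genes had 1 probe set. Averaging a gene's probe sets moved the change of 10 called genes by more than 1.5 times. Besides Eif5a, Eif6, Eif2ak1, Eif3l and Eif4ebp2, given above, Eif2b5 went from -0.70 to -0.34, Eif3d from -0.92 to -0.43, Eif3i from -0.32 to -0.17, Eif3a from -0.26 to -0.42 and Eif2ak4 from 0.47 to 0.30, all 5 still called. Whether probe sets that differ read different transcript ends was not tested.

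**Figure D4:**
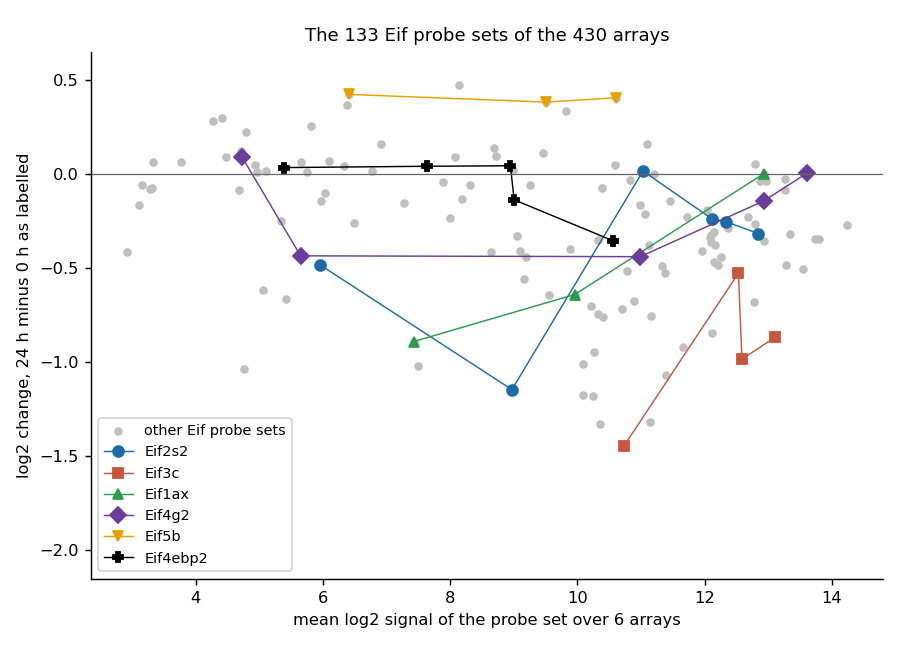
Log2 change at 24 h (vertical) against mean log2 signal over the 6 arrays (horizontal) for the 133 Eif probe sets of the 430 arrays; lines join the probe sets of a named gene in order of signal. The 3 probe sets of Eif5b lie together near 0.4 and the 4 of Eif3c lie below -0.5, while those of Eif2s2, Eif1ax, Eif4g2 and Eif4ebp2 spread.

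Other genes of the translation machinery were called in both directions. Across 6 lists of other translation genes, 26 of 57 measured genes were lower and 15 higher on the 430 arrays (median change -0.10), and 18 of 52 were higher and 6 lower on the exon arrays (median 0.19). Nearly all of these genes lie at or above the median signal, where 40.1% of all genes were called lower and 29.1% higher on the 430 arrays, and 32.2% higher and 15.8% lower on the exon arrays, so the counts are close to that background. The split of the 430 calls depended on scaling: with array medians removed 27 were lower and 8 higher, so 22.9% of calls were higher in place of 36.6%. On the exon arrays quantile normalization gave 13 higher and 9 lower, so 59.1% of calls were higher in place of 75%.

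Of 10 elongation genes 5 were lower and 2 higher on the 430 arrays, and 3 of 9 were higher on the exon arrays. Eef1e1, an adaptor of the aminoacyl-tRNA synthetase complex, had changes of -1.17 (SE 0.0696) and 1.27 (SE 0.136), called on both designs. Tsfm, a mitochondrial elongation factor, had -1.10 (SE 0.061) and 0.83 (SE 0.108), also called on both, and Eefsec, the elongation factor for selenocysteine, had -1.09 (SE 0.0866) and 0.33 (SE 0.126), called on the 430 arrays. Of 8 termination and recycling genes 5 were lower and 2 higher on the 430 arrays, and 4 of 7 were higher on the exon arrays. The largest 430 changes there were -0.79 for Upf1, the helicase of nonsense-mediated decay, -0.78 for Abce1, which splits terminated ribosomes, and -0.49 for Gspt1, the release factor eRF3a. Their exon changes were 0.36, 0.79 and 0.91, all called.

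Of 12 partners of the cap and the poly(A) tail, 5 were lower and 2 higher on the 430 arrays. Larp1, which binds the caps of messages for the translation machinery, had changes of -1.04 (SE 0.0608) and 0.72 (SE 0.186), and Pabpc4, a poly(A)-binding protein, had -0.73 on the 430 arrays. Paip2, an inhibitor of poly(A)-binding protein, went the other way (0.71, SE 0.0617, and -0.61, SE 0.0954, called on both). The exon arrays had 5 of 11 higher and 1 lower.

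The mTOR and MNK list, which holds the kinases that act on 4E-BP and eIF4E, was split, with 7 of 15 higher and 5 lower on the 430 arrays and 2 of 14 higher and 3 lower on the exon arrays. Akt1s1 (PRAS40, an mTOR inhibitor) had a 430 change of -1.02 (SE 0.107) and Ddit4 (REDD1, a stress-induced inhibitor of mTOR) of -0.72 (SE 0.09), whereas Deptor, another inhibitor of mTOR, had 0.77 (SE 0.0781). Their exon changes were 0.74 for Ddit4 (SE 0.132, called), 0.19 for Akt1s1 (SE 0.133) and -0.45 for Deptor (SE 0.177), the latter genes not called. In the list of genes that act on or answer to eIF2 phosphorylation, 5 of 10 were lower and 2 higher on the 430 arrays, and 3 of 9 were higher and 2 lower on the exon arrays. Impact, a protein that blocks activation of GCN2, had the largest change of the lists, 1.76 (SE 0.0785, adjusted p = 3.07e-07) on the 430 arrays and -1.65 (SE 0.14, adjusted p = 0.000662) on the exon arrays. Gcn1, which GCN2 needs for its activation, had -1.08 (SE 0.0802) and 0.19 (SE 0.111, not called), and Trib3, a target of ATF4, had -0.73 (SE 0.1) and 0.83 (SE 0.148). Of the mitochondrial initiation factors, Mtif3 was lower on the 430 arrays (-0.35, SE 0.0808) and Mtif2 higher on the exon arrays (0.57, SE 0.143).

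The genes whose 12 centred values were most like the mean profile of the 35 members on both designs were Acaca, Ston2, Uqcc1, Atad2 and Ctps, with Pearson r between 0.996 and 0.997. The 12 values comprise 4 groups whose means differ, which all genes with a strong opposite change share.

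Arrays have no read depth, and the number of arrays limits the precision. An exact two-sided permutation test on 3 arrays against 3 has a smallest p of 0.1. Across features, arrays of a group correlated at 0.997 to 0.998 on the 430 design and at 0.985 to 0.989 on the exon design. Arrays of the 430 type are usually hybridised with antisense RNA, whereas their labels describe sense-strand DNA, and what this does to the signals was not tested.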

How the data were processed

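Total RNA of PUER cells was read on 12 Affymetrix arrays, 3 for each of 4 groups taken from the sample titles. Per the labels' protocols, 300 ng of RNA was used for each 430 array, and 1.5 µg, depleted of ribosomal RNA, for each exon array. The values are log2 signals that the authors deposited, in a table for each design, made with Affymetrix Expression Console per the submitters' processing notes; the way probes were summarised is not given in those sources. Those notes name build mm8 for the exon arrays, so the coordinates printed are those of RefSeq promoters only.

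No further normalization was applied in the main fits. The 430 array medians differed by label, from 5.78 to 5.80 at 0 h and from 5.85 to 5.87 at 24 h. Removing array medians left 31 Eif genes lower and 2 higher on the 430 arrays. After 64 control probe sets were set aside, each design was fitted with lmFit and eBayes of limma 3.58.1 under R 4.3.3, and two-sided p-values were adjusted by Benjamini-Hochberg over its 45037 or 23238 features, and the code was tested on simulated data. Symbols came from the platform annotation; 34945 probe sets and 14939 transcript clusters had 1 symbol, 932 and 989 had several, and 9160 and 7310 had none. All 133 and 35 Eif features matched the RefSeq annotation of GRCm38.p6 under the same symbol. A gene took its brightest qualifying feature. Means are given with per-array values, and SEs are limma's moderated ones. The summed signal of a marker list is the log2 of the sum of linear signals.

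Per-array values are given for Eif genes called with a change of at least 1, the highest and lowest 430 change of each role group, genes called the same way on both designs, genes with probe sets called both ways, and a set of well-known factors; from each list of other translation genes, up to 3 with the largest 430 change were named. Other genes named with values, among them Eif3e, Eif1b, Atf4's target Trib3 and the probe sets described, were added where a statement turned on them. The members and lists were chosen with earlier results of these data known. The signal limits of 10 and 8 and the motifs were chosen after the values were seen. Alternatives were quantile normalization, removed array medians, a filter at the median signal, an intensity trend with robust variances, a replicate block, the mean of a gene's features, a change of at least 1, each array left out, and rescaled exon values for the difference between designs; quantile normalization of the lists was added after the values were seen.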

Additional observations from a re-analysis of the deposited data

Results flagged for a closer look

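The change at 24 h differed between the 430 and the exon arrays for 27 of the 35 initiation factor genes on both designs, by the limma test of the difference itself (adjusted p under 0.05 over all joined genes). The largest differences, 430 change minus exon change, were -2.80 for Eif1ad (SE 0.135), -2.19 for Eif3b (SE 0.139) and -2.11 for Eif2b4 (SE 0.138). Of all joined genes 58% differed, and the members' count is to be read against that share; the labels of a design may be exchanged. Each group has 3 arrays, too few for a check of single arrays that stand apart.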

How the results depend on the processing

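Under quantile normalization 4 Eif genes were higher on the 430 arrays in place of 2, and 29 lower in place of 30. On the exon arrays it gave 16 higher and 3 lower in place of 19 and 2. The median exon change of the members was then 0.28 in place of 0.38. Requiring a log2 change of at least 1 left 0 higher and 4 lower on the 430 arrays and 2 higher and 0 lower on the exon arrays. Deviations of same-numbered arrays had r from -0.05 to 0.13 on the 430 arrays and from -0.05 to 0.01 on the exon arrays. Such values from 3 arrays per group cannot decide whether the numbers pair the samples. With the replicate number as a block, 29 genes were lower and 2 higher on the 430 arrays, 14 higher and 0 lower on the exon arrays, the other translation genes on the exon arrays had 11 higher in place of 18, and 25 genes differed between designs. With array medians removed, 8 of the other translation genes were higher on the 430 arrays in place of 15. Leaving out each array in turn gave 29 to 30 lower and 2 higher on the 430 arrays and 14 to 17 higher and 0 to 2 lower on the exon arrays; the exon count of lower genes was 0 without 24 h replicate 2 and 1 without 0 h replicate 2 or 3. The count that differed between designs ran from 24 to 29. With the mean of a gene's features, 6 of the 430 changes turned sign, because other probe sets moved otherwise: Eif1ax (-0.51, adjusted p = 0.000106), Eif3l (0.014) and Eif4g2 (-0.18), called with the brightest probe set or with the mean, and Eif2b2 (-0.05), Eif3e (0.01) and Eif4e2 (-0.05), called with neither. The largest median shift of a gene's change under another scaling was -0.067, on the 430 arrays with array medians removed; the filter at the median signal left each change as it was, but the median over the genes kept was -0.04 for the 430 design and 0.13 for the exon design. Whether any labels are exchanged was not tested, and signals near the bottom of a scale, such as those of Eif2s3y, limit what can be seen.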
